A study of Homo sapiens with 6 samples.

Results

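Tumour necrosis factor (TNF) family signalling was examined through 10 genes: the ligand genes LTB, TNF and TNFSF10, and the receptor genes TNFRSF1A, TNFRSF10A, TNFRSF10B, FAS, TNFRSF21, LTBR and TNFRSF12A. They were selected by gene symbol, and each symbol matched 1 of the 62700 gene IDs counted. The libraries came from OVCAR8, a line derived from an ovarian carcinoma and labelled wild type in both groups. After a night without serum, 3 samples received PBS (the controls) and 3 received leptin, a hormone made by fat cells, at 100 ng/ml for 24 h. All results describe 1 cell line. Nothing in the labels ties the replicates to separate cultures, so a p-value here reflects variation among 6 libraries that could be technical in origin.

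TNF family ligands are made as membrane proteins that assemble as trimers and can be shed from the cell. Their receptors fall into a group with a cytoplasmic death domain (TNFRSF1A, FAS, TNFRSF10A, TNFRSF10B and TNFRSF21 here), which can recruit FADD or TRADD and start a caspase cascade, and a group without one (LTBR and TNFRSF12A here), which binds TRAF adaptors. Both groups can activate NF-kB, and in many carcinoma cells survival or death after ligand binding depends on the balance of these outputs.

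Library totals lay between 15609425 and 18577775 counts. Levels are given as CPM, a gene's counts relative to its library's TMM-scaled total, or, where genes are compared with each other, as TPM, which also divides by exon length. The epithelial and ovarian lineage genes PAX8, SOX17, KRT8 and KRT18 were well expressed (364, 47.7, 2138 and 410 CPM in controls), while MUC16, MSLN and CDH1 were at 0.159, 0.320 and 0.247 CPM. WT1 and EPCAM were low too, at 2.39 and 3.98 CPM in controls, and KRT7 stood at 332 CPM. Of the 11 tested markers of this list, the keratin gene KRT19 fell from 102 to 38.7 CPM (log2 fold change -1.40, edgeR adjusted p = 0.000139). That call was kept in 6 of 6 leave-outs. The folate receptor gene FOLR1 rose from 44.6 to 68.8 CPM (0.63, edgeR adjusted p = 0.0234), a call kept in 2 of 6 leave-outs. Among lymphocyte markers 6 of 12 had no count in any library, including CD3D, CD3E, MS4A1 and the pan-leukocyte gene PTPRC. The summed level of those 12 genes was 0.435 to 0.527 CPM in controls and 0.356 to 0.865 CPM with leptin. The 10 myeloid markers summed to 1.95 to 2.64 and 2.79 to 4.79 CPM, of which CSF1R made up most. The 10 fibroblast and endothelial markers summed to 461 to 657 CPM in controls and 358 to 522 CPM with leptin, mostly COL1A1 (562 and 421 CPM), and 0 of the 5 tested passed by edgeR (3 at an unadjusted p under 0.05). Among those 5, the leptin libraries lay below the controls for DCN (1.06 and 0.237 CPM) and LUM (2.004 and 0.983 CPM) and above them for PDGFRB (0.900 and 2.07 CPM), and their part in the results was not tested. Leptin replicate 1 stood apart on the first principal component, where it scored -2.15. The controls scored -31.0 to -23.6 there, and the other leptin libraries scored 39.6 and 46.3.

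Of the 10 genes, LTB rose and TNF fell with leptin, while the 8 others stayed above an adjusted p of 0.05 in edgeR's quasi-likelihood test. In the same test 9.81% of 15685 genes passed (5.71% higher and 4.09% lower), so a count of 2 among 10 is close to the background and says little about the family as a whole. The 3 leptin libraries lay entirely above the controls for LTB and entirely below them for TNF, FAS and TNFRSF21. Such separation was found for 32.2% of all tested genes. The median log2 fold change of the 10 genes was 0.08, against 0.01 over all tested genes. All 10 passed the filter on low counts, LTB only through its leptin libraries.

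**Figure D1:**
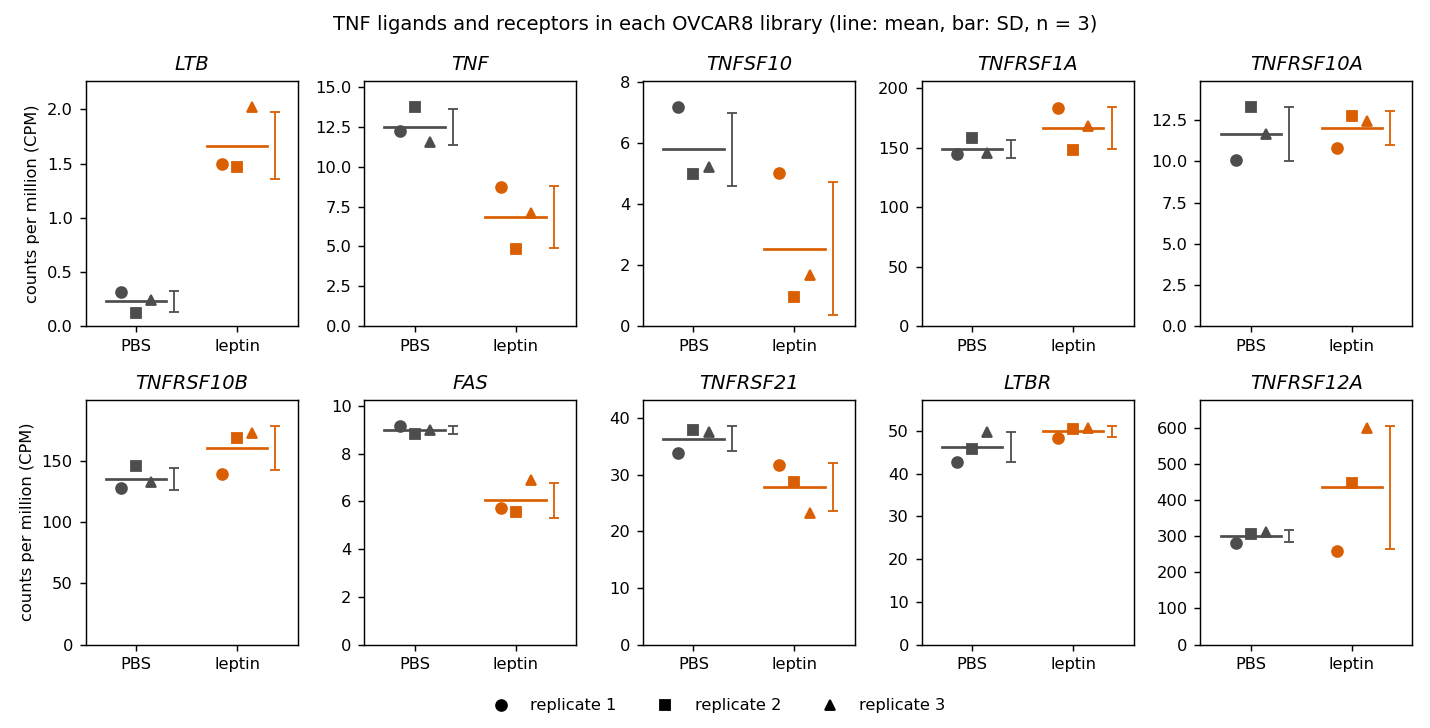
CPM of each gene (vertical axes, linear from 0) in the 3 PBS and 3 leptin libraries, with a marker for each replicate, a line at the mean and a bar for 1 SD. LTB is at 0.124 to 0.316 CPM in controls and 1.47 to 2.02 CPM with leptin, and for TNFSF10 leptin replicate 1 lies among the controls while replicates 2 and 3 lie below them.

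LTB encodes lymphotoxin beta, a ligand subunit best known from lymphocytes, which anchors lymphotoxin alpha at the membrane and signals through LTBR. It lies on chromosome 6 at 31580525 to 31582522 on the minus strand (hg38). Its counts were 6, 2 and 4 in control replicates 1, 2 and 3 and 26, 22 and 34 in the leptin replicates, or 0.316, 0.124 and 0.240 CPM against 1.499, 1.47 and 2.02 CPM. The lowest leptin library was thus well above the highest control, although both groups were at low levels. The fitted log2 fold change was 2.81 ± 0.48 (SE; edgeR adjusted p = 0.00845), which is 7.03-fold with a 95% interval of 3.37 to 14.7. Summed over libraries, 12 control and 82 leptin counts gave a ratio of 6.97 per total count (exact 95% interval 3.78 to 14.0, counting error only). The adjusted p rose to 0.0544, 0.0597 and 0.0531 without control replicate 1, control replicate 3 or leptin replicate 3, and the log2 fold change then lay between 2.64 and 3.13. Of the 12 lymphocyte markers, 6 had no count in any library. The 12 summed to 0.435 to 0.527 CPM in controls and 0.356 to 0.865 CPM with leptin. The part of lymphocyte RNA in the LTB difference was not tested. CSF1R, the myeloid receptor, stood at 3.64 CPM with leptin against 2.11 CPM in controls and did not pass (edgeR adjusted p = 0.130), and the part of myeloid RNA in the LTB difference was not tested. In RNA from whole cultures, more RNA per cell and more cells expressing a gene cannot be told apart.

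TNF encodes the founding cytokine of the family, which binds TNFRSF1A on most cells. The gene is a close neighbour of LTB, on the plus strand of chromosome 6 at 31575565 to 31578336, with 2188 bases between them. It stood at 12.2, 13.7 and 11.5 CPM in controls and at 8.71, 4.81 and 7.07 CPM in leptin replicates 1, 2 and 3. All leptin libraries were below all controls, replicate 2 the lowest. The fall was from 12.5 ± 1.13 to 6.86 ± 1.96 CPM (mean ± SD, n = 3 each), and the fitted log2 difference was -0.86 ± 0.21 (SE; edgeR adjusted p = 0.0294). TNF did not pass without control replicate 1, 2 or 3 (adjusted p = 0.129, 0.122 and 0.105) or without leptin replicate 2 or 3 (0.0620 and 0.103). Leaving out leptin replicate 1 gave -1.07 on the log2 scale, which passed (edgeR adjusted p = 0.000656).

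The promoter sequences of LTB and TNF from RefSeq (GRCh38.p14) are shown, each in its gene's own 5′ to 3′ direction. Their part in the opposite changes of these neighbours was not tested. For LTB, 30 bases around the match to an NF-kB motif that begins 86 bases before the RefSeq start are given (chr6:31582492-31582521, minus strand), with the match in capitals. In the gene annotation used for counting an LTB exon reaches 97 bases before that start and overlaps this stretch. For TNF, the 250 bases before the start are given (chr6:31575315-31575564, plus strand), with matches to the Sp1 motif GGGCGG on either strand in capitals.
LTB: aggggtgtgcGGAAAGTCCCagccaggtgt
TNF: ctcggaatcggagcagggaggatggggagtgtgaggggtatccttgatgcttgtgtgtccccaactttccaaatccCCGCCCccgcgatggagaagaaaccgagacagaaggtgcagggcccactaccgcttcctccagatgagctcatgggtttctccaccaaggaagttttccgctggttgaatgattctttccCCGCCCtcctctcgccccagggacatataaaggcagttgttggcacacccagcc
Promoter windows (250 bases before to 50 after each start) were given for 7 of the 10 genes. The NF-kB consensus, searched on both strands, matched in windows of LTB and FAS and in 11.3% of 35116 windows of all genes. GGGCGG matched in windows of 4 of the 7 genes (TNF, TNFRSF21, FAS and LTBR) and in 45.0% of all windows. TGANTCA, the AP-1 motif, matched in 1 window of FAS and in 7.71% of all windows, and TGACG in none of the 7 genes and 24.6% of all windows. A match describes letters in the window only, and sites whose letters differ from the consensus are not found by this search.

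TNFSF10 encodes TRAIL, the ligand of TNFRSF10A and TNFRSF10B. Its control libraries were at 7.17, 4.97 and 5.22 CPM. Leptin replicate 1, at 5.02 CPM, lay within the control range, whereas replicates 2 and 3, at 0.936 and 1.66 CPM (14 and 28 counts), lay far below it. The log2 fold change of -1.17 ± 0.47 did not pass (edgeR adjusted p = 0.133). Without leptin replicate 1 it was -2.15 ± 0.32 and passed (adjusted p = 0.000107). With the replicate number as a block it also passed, with a log2 fold change of -1.40 and an edgeR adjusted p of 0.0312, although the numbers did not pair the libraries.

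**Figure D2:**
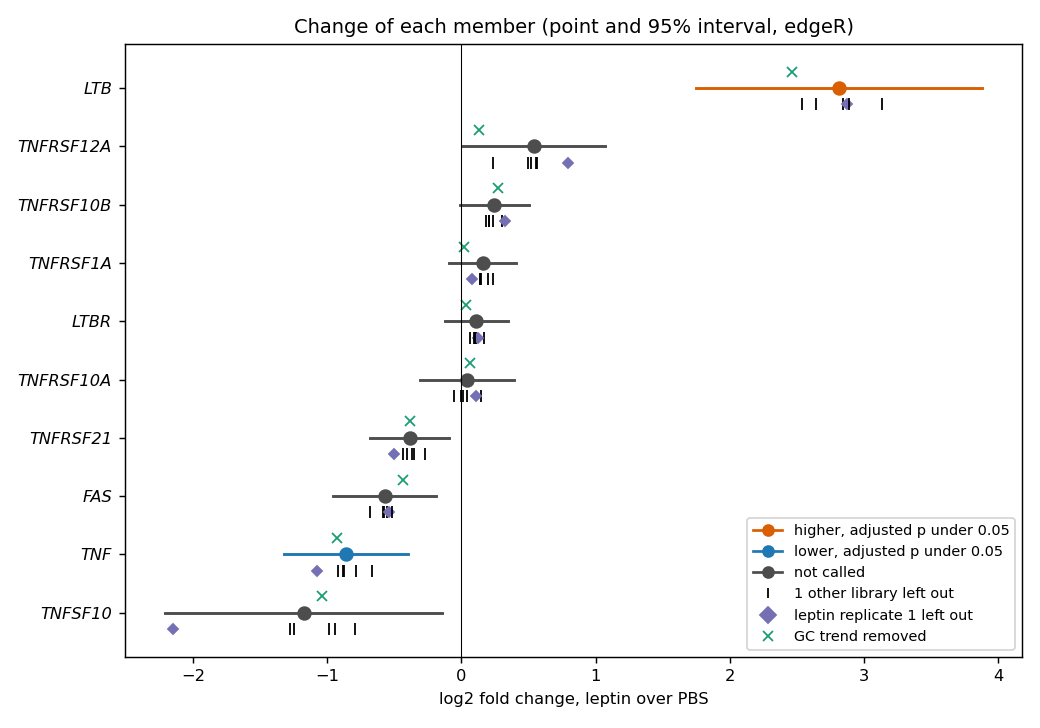
Log2 fold change (leptin over PBS, horizontal axis) of each gene, with its 95% interval from edgeR, the values with 1 library left out below each line, and the value with the GC trend removed above it. LTB at 2.81 and TNF at -0.86 passed, and TNFSF10 moves from -1.17 to -2.15 when leptin replicate 1 is left out.

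None of the 5 receptors with a death domain passed the test, and their fold changes were small beside that of LTB. TNFRSF1A, the main TNF receptor, stood at 145, 158 and 146 CPM in controls and at 183, 149 and 168 CPM with leptin. The groups overlapped (log2 fold change 0.16, 95% interval -0.09 to 0.41, edgeR adjusted p = 0.395). The TRAIL receptor gene TNFRSF10A stood at 10.1, 13.3 and 11.6 CPM in controls and at 10.8, 12.8 and 12.5 CPM with leptin, again with overlap. Its log2 fold change was 0.04 with an interval of -0.31 to 0.39 (edgeR adjusted p = 0.889). TNFRSF10B, which encodes the other TRAIL death receptor (DR5), was expressed at a higher level, at 127, 145 and 133 CPM in controls and 140, 169 and 173 CPM with leptin. Leptin replicates 2 and 3 were above all controls and replicate 1 was among them. Its log2 fold change was 0.25 (interval -0.01 to 0.50, edgeR adjusted p = 0.200), and it passed without leptin replicate 1 (0.33, adjusted p = 0.0139). DDIT3, a stress-induced transcription factor gene of the list of regulators, rose from 22.9, 25.2 and 18.5 CPM to 36.4, 74.9 and 105 CPM. The rise was by 1.70 ± 0.35 on the log2 scale (edgeR adjusted p = 0.0252) and passed in 2 of 6 leave-outs. A link between DDIT3 and TNFRSF10B was not tested.

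FAS encodes the receptor of Fas ligand, the classical inducer of the death-inducing complex. It stood at 9.17, 8.82 and 9.002 CPM in controls, a narrow range, and at 5.71, 5.55 and 6.89 CPM with leptin. All leptin libraries were lower, yet the log2 fold change of -0.57 ± 0.17 (interval -0.95 to -0.19) missed the threshold over all genes (edgeR adjusted p = 0.0605), and passed without leptin replicate 1 (-0.54, adjusted p = 0.0412). TNFRSF21 encodes death receptor 6, best studied in neurons and lymphocytes. It stood at 33.8, 38.0 and 37.5 CPM in controls and at 31.7, 28.7 and 23.2 CPM with leptin, without overlap. Its log2 fold change of -0.39 ± 0.13 did not pass (edgeR adjusted p = 0.0901), and did without leptin replicate 1 (-0.50, adjusted p = 0.00649). Reads over exons shared with another gene were not counted. Such exon bases made up 7.53% of TNFRSF10B (shared with RHOBTB2 on the other strand), 16.7% of TNFRSF10A (shared with its divergent and antisense transcripts), 6.86% of LTBR (shared with SCNN1A), 2.22% of TNFRSF12A (shared with CLDN6) and 7.04% of FAS (shared with ACTA2, STAMBPL1 and an unnamed gene). No strand option was used, so exons shared with a gene on the other strand were left out too. In the remaining exons, reads from either strand were counted for the gene.

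The receptors without a death domain also gave no call. LTBR, which binds lymphotoxin trimers and LIGHT and can activate the non-canonical NF-kB route, stood at 42.8, 45.8 and 49.8 CPM in controls and at 48.3, 50.5 and 50.7 CPM with leptin. Its log2 fold change was 0.11 with an interval of -0.12 to 0.34 (edgeR adjusted p = 0.539). Of its ligand partners, LTB was the gene that rose. LTA was too low to be tested, with 19, 8 and 7 counts in controls and 4, 4 and 10 with leptin. TNFSF14, which encodes LIGHT, was not tested either, with control and leptin means of 0.615 and 0.4999 CPM.

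TNFRSF12A, the receptor of the cytokine TWEAK (Fn14), had the highest level of the 10 genes. It stood at 281, 307 and 311 CPM in controls and at 260, 448 and 599 CPM in leptin replicates 1, 2 and 3. Leptin replicate 1 lay below every control and the other leptin libraries above every control. The log2 fold change of 0.54 ± 0.24 did not pass (edgeR adjusted p = 0.175). It was 0.80 without leptin replicate 1 (adjusted p = 8.67e-05) and 0.23 without leptin replicate 3 (adjusted p = 0.546). The longest transcript of TNFRSF12A has a GC content of 64.2%, above that of 95.1% of tested genes. With each library's trend on GC content removed, the log2 fold change was 0.13 (edgeR adjusted p = 0.711). LTB has 63.4% GC and kept a log2 fold change of 2.46 under the same step (adjusted p = 0.0185), and TNF, at 54.3% GC, one of -0.92 (adjusted p = 0.0273). TWEAK's own gene, TNFSF12, had a mean of 3.55 CPM in the control libraries and of 3.31 CPM in the leptin libraries (edgeR adjusted p = 0.861).

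Without leptin replicate 1, the library that stood apart, 7 of the 10 genes passed: LTB, TNFRSF12A and TNFRSF10B higher, and TNF, TNFSF10, FAS and TNFRSF21 lower. In that fit 29.6% of all tested genes passed. Without control replicate 1, control replicate 3 or leptin replicate 3, 0 of the 10 passed, and 0.711%, 1.05% and 1.66% of all tested genes did. LTB alone passed without control replicate 2 or leptin replicate 2, where 2.25% and 4.84% of all tested genes did. LTB and TNF both passed under RLE scaling (9.84% of tested genes), upper-quartile scaling (9.74%), DESeq2 (14.1%), limma-voom (8.45%) and removal of the GC trend (5.53%). TNFSF10 joined them with a replicate block (8.31%), with the block and the GC trend removed (6.01%), and, together with TNFRSF12A, when low counts were not filtered (7.42%). TNF alone passed among genes with a mean of at least 1 CPM, where LTB was not tested (10.7%), and LTB alone passed an adjusted p of 0.01 (1.75%). At an unadjusted p under 0.05 in the comparison of all 6 libraries there were 6 of the 10, against 27.6% of all tested genes.

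Compared per exon length, TNFRSF12A was the most abundant transcript of the 10 in control cells, at 681 ± 40.9 TPM (mean ± SD, n = 3). TNFRSF1A followed at 145 ± 6.96 TPM and TNFRSF10B at 110 ± 7.40 TPM. TNFRSF21 stood at 41.5 ± 2.74 TPM, LTBR at 30.7 ± 2.58 TPM and TNF at 30.5 ± 2.58 TPM. The ranges of LTBR and TNF overlapped, so their order was not resolved. Below them were TNFRSF10A (16.3 ± 2.25 TPM), TNFSF10 (6.88 ± 1.40 TPM), FAS (1.26 ± 0.0261 TPM) and LTB (0.605 ± 0.257 TPM). No other neighbours in this order overlapped. With leptin LTB reached 4.28 ± 0.639 TPM, above the 2.94 ± 2.57 TPM of TNFSF10, whose replicate 1 remained higher than every LTB value. The place of FAS depends on its length: the annotation gives it 29313 exon bases, and with the 2563 bases of its longest GENCODE 29 transcript its control level was 14.4 TPM. With the longest transcript in place of all exon bases, LTBR went from 30.7 to 81.1 TPM, above TNFRSF21, TNFRSF1A from 145 to 275 TPM and TNFSF10 from 6.88 to 12.1 TPM, and the 6 others moved by less than 1.5 times. In these comparisons, that of FAS included, only the named gene's own length was exchanged. The scale over all genes stayed that of all exon bases, so the values are not full TPM on transcript lengths. That comparison of lengths was chosen after seeing the data.

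**Figure D3:**
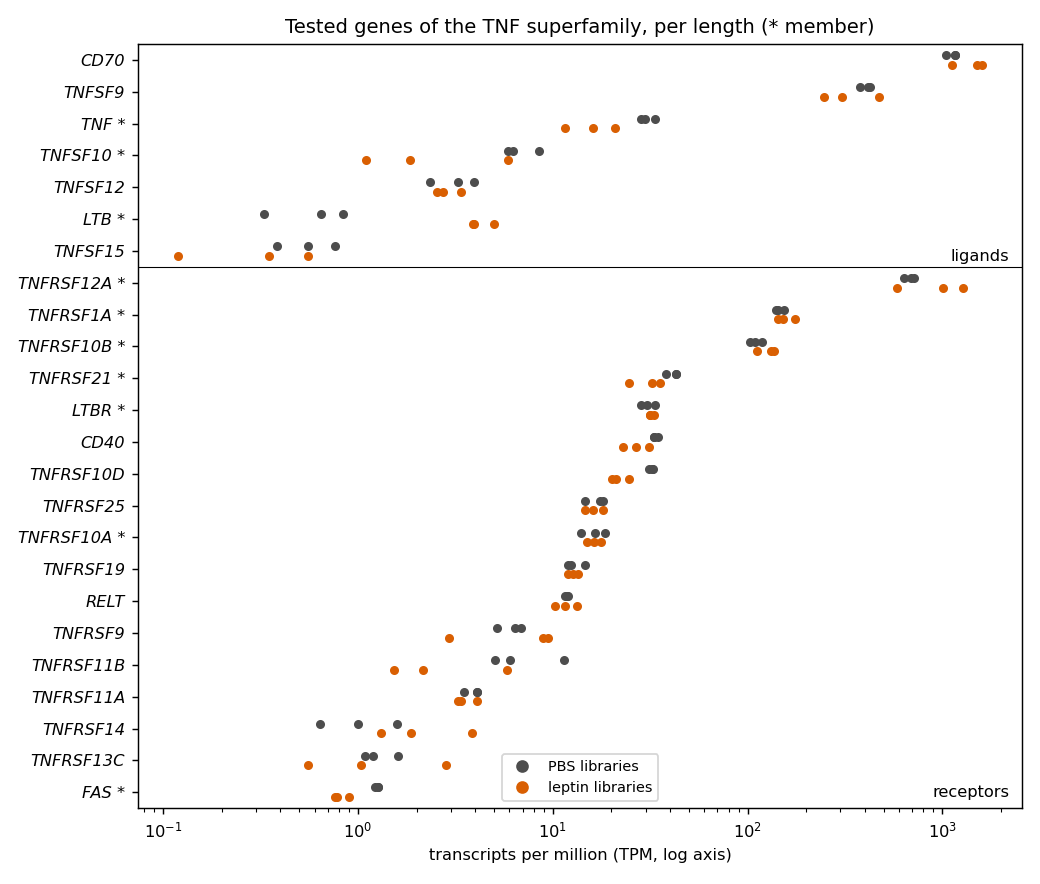
TPM (horizontal log axis) of every tested gene of the TNF superfamily in the PBS and leptin libraries, ligands above the line and receptors below, members of the set of 10 marked with a star. TNFRSF12A and the ligand gene CD70 reach the highest levels. Among the genes drawn, LTB has the leptin points that lie farthest above its PBS points. LTB passed the filter on low counts only through its leptin libraries, and genes too low to be tested are not drawn.

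The rest of the superfamily was mostly silent or not called. Of 15 other ligand genes 4 could be tested and 0 passed by edgeR (1, CD70, at an unadjusted p under 0.05), with a median log2 fold change of -0.15. CD70, the ligand of CD27, was highly expressed, at 1123 TPM in controls and 1409 TPM with leptin (log2 fold change 0.38 ± 0.15, edgeR adjusted p = 0.122). TNFSF9, the 4-1BB ligand gene, stood at 406 and 340 TPM (adjusted p = 0.520), and TNFSF12 at 3.18 and 2.88 TPM. FASLG, TNFSF11 and CD40LG had no count in any library, which allows a level of up to 0.158 to 0.200 CPM, or 3 counts, depending on the library (counting error only). Of 22 other receptor genes 10 were tested (median 0.01) and 1 passed. This was TNFRSF10D, which encodes a decoy receptor for TRAIL with a truncated death domain. It fell from 27.0, 28.3 and 27.6 CPM to 21.7, 18.4 and 18.6 CPM, with a fitted log2 difference of -0.50 ± 0.12 (edgeR adjusted p = 0.0297). Its call held without leptin replicate 1 and was lost in the 5 other leave-outs (highest adjusted p 0.135, log2 differences of all 6 between -0.59 and -0.46) and with the GC trend removed (-0.43, adjusted p = 0.0560). TNFRSF10D shares its chromosome 8 cluster with TNFRSF10A and TNFRSF10B, neither of which passed. CD40, at 33.7 and 27.0 TPM, and TNFRSF25, at 16.8 and 16.3 TPM, did not pass (edgeR adjusted p = 0.190 and 0.9997).

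The pathway lists are read against the 5.71% higher and 4.09% lower, and the median of 0.01, of all tested genes. Downstream of the receptors, 1 of 14 tested genes of the list on the death-inducing complex and caspases fell and 0 rose (median log2 fold change -0.08). TNFAIP8, a TNF-induced regulator of apoptosis, fell from 13.8 ± 0.868 to 9.18 ± 1.42 CPM (edgeR adjusted p = 0.0445). The initiator caspase gene CASP8 stood at 45.5 and 42.7 CPM and the adaptor gene FADD at 22.3 and 27.1 CPM, both without a call, as was CFLAR, which encodes the caspase-8 inhibitor FLIP (50.9 and 48.8 CPM). RIPK3, the necroptosis kinase gene, had no count in any library. These values were measured in the same 6 libraries as the ligands, and apoptosis itself was not measured.

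In the relay of TRAFs, ubiquitin ligases and kinases, 4 of 23 tested genes rose and 0 fell (median log2 fold change -0.02). RBCK1, which encodes HOIL-1 of the linear ubiquitin assembly complex, rose from 360, 412 and 384 CPM to 565, 1169 and 1186 CPM, by 1.34 ± 0.24 on the log2 scale (edgeR adjusted p = 0.00983). SHARPIN, of the same complex, rose from 93.4 to 136 CPM (0.0481), but had a log2 fold change of 0.05 with the GC trend removed in place of 0.54. RNF31, which encodes the catalytic subunit HOIP of that complex, stood at 0.571 and 0.557 CPM. Only 2943 of its 6713 exon bases are free of other genes' exons. Since reads over shared exons were not counted, its level may be understated. TRAF4 rose from 44.6 to 66.6 CPM (edgeR adjusted p = 0.0274). MAP3K14, whose product NIK drives the non-canonical NF-kB route below LTBR and TNFRSF12A, rose from 65.9 to 91.2 CPM (adjusted p = 0.0264), and its log2 fold change went from 0.47 to 0.28 with the GC trend removed (edgeR adjusted p = 0.149).

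NF-kB subunit genes and genes induced by TNF gave 5 falls and 1 rise among 21 tested, with a median of -0.33 on the log2 scale. The inflammatory genes IL1A (38.0 to 21.5 CPM, edgeR adjusted p = 0.00768), CXCL8 (109 to 49.8 CPM, 0.00943) and CSF2 (9.28 to 2.47 CPM, 0.0269) fell with TNF. So did CXCL3 (6.85 to 2.47 CPM, 0.0390) and IL6 (21.5 to 11.9 CPM, 0.0493), named after their values were seen. ICAM1, an adhesion molecule gene, rose from 5.23 to 10.5 CPM (0.00926). CXCL1 went from 372 to 117 CPM without passing (edgeR adjusted p = 0.0660), and was also named after its values were seen. The subunit genes of the non-canonical route, NFKB2 (84.5 and 111 CPM, adjusted p = 0.0667) and RELB (62.7 and 145 CPM, 0.0696), did not pass. Of RELB's leptin libraries, replicate 1 stood at 67.3 CPM, next to the controls, and replicates 2 and 3 at 189 and 179 CPM. Among the feedback genes, TNFAIP3 stood at 39.4 and 26.4 CPM and BIRC3 at 12.5 and 7.71 CPM, also without a call (adjusted p = 0.0701 and 0.0702).

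Genes for shedding of ligands and receptors gave 0 calls by edgeR among 7 tested (2 at an unadjusted p under 0.05; median log2 fold change 0.16), and the TNF-shedding protease gene ADAM17 stood at 38.0 and 44.5 CPM. Of 12 genes for transcription factors reported to act on death receptor genes, 5 rose and 0 fell, with a median log2 fold change of 0.27. They were ATF4 (464 to 740 CPM, edgeR adjusted p = 0.0166), DDIT3, ATF3 (2.38 to 6.59 CPM, 0.0278), IRF1 (42.5 to 88.3 CPM, 0.0320) and CEBPB, the last named after its values were seen (188 to 309 CPM, 0.0411). With the GC trend removed the log2 fold change of CEBPB was 0.24 in place of 0.72 (edgeR adjusted p = 0.289). Across these pathway lists 17 genes passed. Of the 17, 17, 5 and 3 still passed without leptin replicates 1, 2 and 3, and 0, 4 and 2 without control replicates 1, 2 and 3. Of all 1538 genes called in the full fit, 1533, 722 and 264 still passed without leptin replicates 1, 2 and 3. Without control replicates 1, 2 and 3 the numbers were 115, 362 and 170. All 17 kept their direction in each of those fits. Those fits reuse libraries that gave the calls, so a kept direction is no independent support. With the GC trend removed 8 of the 17 passed (RBCK1, ICAM1, IL1A, CXCL8, CSF2, ATF4, DDIT3 and ATF3). The calls of TNFRSF10D, TNFAIP8, TRAF4, SHARPIN, MAP3K14, CXCL3, IL6, IRF1 and CEBPB were lost. Of all 1538 genes called in the full fit, 727 still passed with that trend removed, a similar share.

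**Figure D4:**
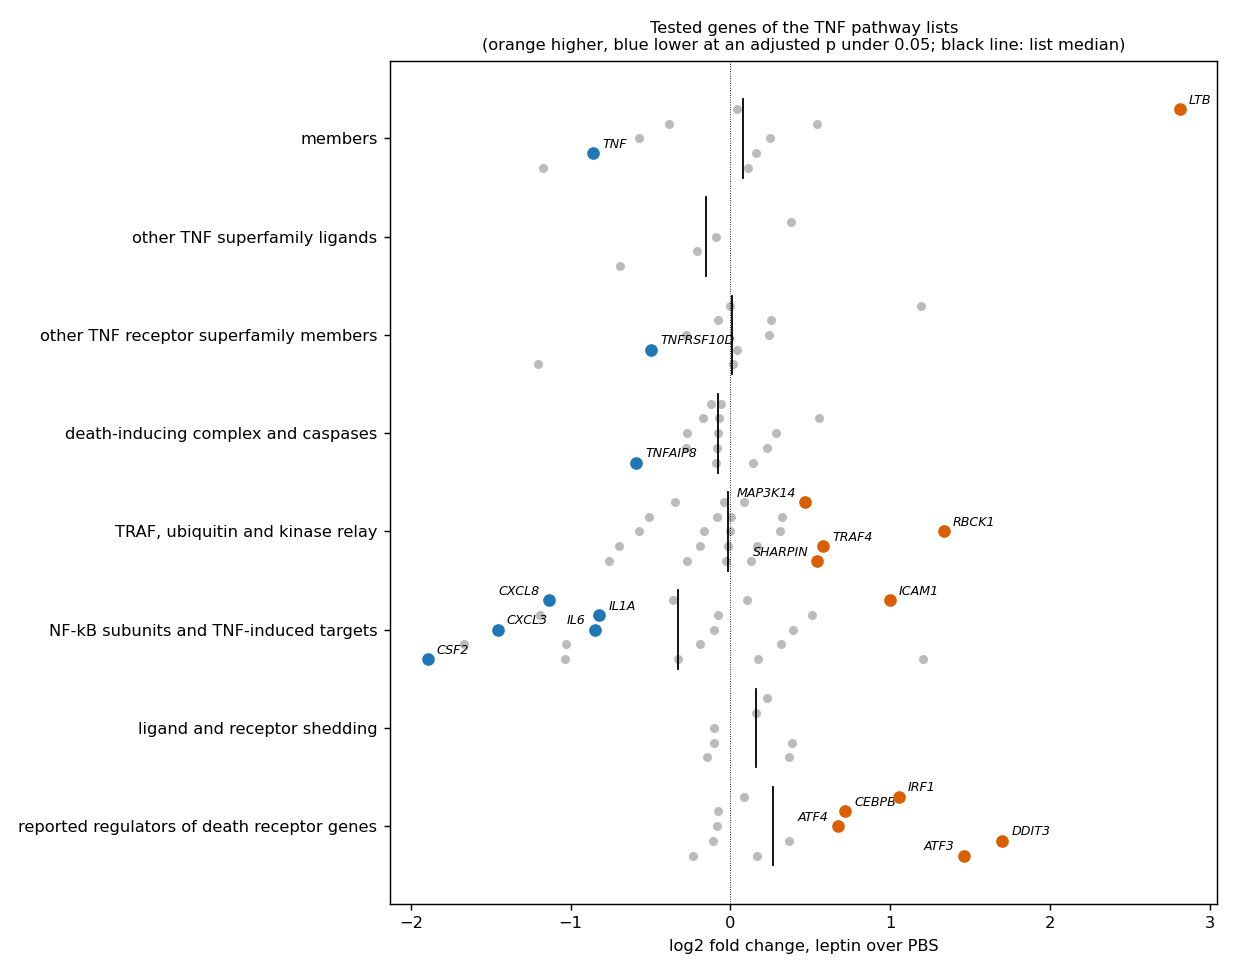
Log2 fold change (leptin over PBS, horizontal axis) of each tested gene in the set of 10 and in 7 pathway lists, 1 point a gene, with a black line at each list's median. Points in colour passed an adjusted p under 0.05, such as RBCK1 at 1.34 and CSF2 at -1.89, and the grey points did not.

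Over the 6 libraries, the protein-coding genes with a pattern most like LTB, among 12337 with a mean of at least 1 CPM, were MORN4, SIRT2 and LZTS3 (Pearson r of log2 CPM 0.999, 0.992 and 0.991). Those most like TNF were TFG, APPL2 and SKA2 (0.998, 0.994 and 0.994). These r values describe 6 libraries that fall into 2 groups and are the highest of a search over all those genes.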

How the data were processed

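RNA sequencing libraries of OVCAR8 cells (3 PBS, 3 leptin) were used. The deposited values are raw counts of read pairs per gene, made by the authors, per the file headers, with featureCounts 2.0.1 over exons of GENCODE release 44, with no strand option. Per the submitters' processing notes, reads were aligned to hg38 and the tools included featureCounts 1.5.0-p3 (a version other than the header's), HISAT2 2.0.5 and DESeq2. The header sets no option to count pairs over exons of 2 genes or multi-mapping reads, so these were left out, which lowers genes with overlaps or near-identical copies. The exon length in the deposited tables (another unit, bases) was used for TPM. All 62700 IDs matched a symbol, and 0 columns with values of other samples were found.

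Leptin was set against PBS with edgeR 4.0.16 (R 4.3.3), using filterByExpr (minimum count 10, minimum total 15), TMM factors, a robust quasi-likelihood fit with no block, and Benjamini-Hochberg adjustment over 15685 genes with a threshold of 0.05. Standard errors are those implied by the F statistic. The test was checked on simulated data. No libraries of a group were copies of each other (chi-square of 4.91 to 40.5 per gene), so each counted as 1 sample. Alternatives were DESeq2 1.42.0, limma-voom (limma 3.58.1), RLE and upper-quartile scaling, no filter or a mean CPM filter, a threshold of 0.01, a replicate block, a GC correction per library (lowess, span 0.3, GENCODE 29 transcripts, known for 97.2% of tested genes), both together, and leaving out each library. The rule for named genes took the 10 members and up to 4 called genes a list by adjusted p. It also took the 3 most abundant genes of each superfamily list and the 3 genes most correlated with each called member. Other genes in the text, such as RELB, NFKB2, TNFAIP3, BIRC3, CASP8, FADD, CFLAR, RIPK3, RNF31, ADAM17, LTA and TNFSF14, fell outside that rule. They are a selection from their lists. The members and lists were chosen with earlier results of these data known, and 1 gene of the lists is not reported here. Figures were drawn with matplotlib 3.10.9.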

Additional observations from a re-analysis of the deposited data

How the results depend on the processing

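The 2 changed genes among the 10 (LTB and TNF) became 4 with no filter on low counts, 1 with a mean CPM of at least 1 (LTB was then not tested), 1 at a threshold of 0.01, and 0 to 7 when 1 library was left out. The 1538 genes changed overall became 2437 with no filter, 274 at that threshold, 868 after the GC correction, 943 after the GC correction in a fit with a replicate block, and 115 to 4761 when 1 library was left out. The highest of these was without leptin replicate 1, and the cause was not tested. DESeq2, limma-voom and the other scalings kept both LTB and TNF. With a replicate block 1303 genes and 3 of the 10 passed, TNFSF10 being added. Replicate numbers did not pair the libraries (correlation of same-numbered deviations -0.049, 0.015 and -0.11), and not every library correlated best with its own number. TNFRSF10A, near 0 throughout, changed sign without control replicate 1 (-0.0524) and without leptin replicate 2 (-0.0016), its leave-outs ranging from -0.0524 to 0.147. The direction of the other 9 genes held in all alternatives that gave a value. Those alternatives reuse the same libraries, so a kept direction is no independent support. LTB rests on 12 control counts, which limits the precision of its fold change.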

Other observations

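The neighbourhood of LTB and TNF on chromosome 6 held 22 annotated genes within 50 kb of TNF, a window chosen after the values of LTB and TNF were seen. Of these, 6 were expressed well enough to be tested, and 2 passed as higher and 1 as lower. These calls include LTB and TNF, around which the window was drawn. Of all tested genes 9.81% passed. Besides LTB, NFKBIL1 rose, a gene named for its similarity to NF-kB inhibitors that lies at 31546870 to 31558829 (hg38, plus strand). Its counts were 415, 385 and 337 in controls and 541, 591 and 682 with leptin, with no overlap, and its level went from 22.0 ± 1.85 to 37.1 ± 5.11 CPM (log2 fold change 0.75 ± 0.14, edgeR adjusted p = 0.00974). TNF was the 1 gene of the window that passed as lower. The RNA helicase gene DDX39B (39.4 and 30.7 CPM, edgeR adjusted p = 0.184), LST1 (0.545 and 0.650 CPM, 0.788) and PRRC2A (514 and 542 CPM, 0.723) did not pass. The leptin libraries of DDX39B also lay entirely below the controls, without a call. Such separation, in either direction, was found for 32.2% of all tested genes. AIF1, a macrophage gene in this window, had no count in any library.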
